A study of Homo sapiens with 3 samples.

Results

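The 55 keratin genes of the human genome were followed through 3 RNA-seq libraries of the established line MCF10Ca1h, a breast cancer member of the human MCF10 series. Members were all genes whose current symbol is KRT with a number and at most 1 letter. Pseudogenes and keratin-associated proteins were left out, and all 55 gene IDs were found among the 56632 of the deposited tables. Of these, 29 were type I and 26 type II keratins. The GSK484 library came from cells given this PADI4 inhibitor for 72 h. The CON library was made after 72 h with a control compound, which the treatment text calls GSK107 and the deposited table GSK106. The NT library came from untreated cells, with no time given. All cells grew in DMEM/F12 with 5% horse serum, and no dose is given. PADI4 turns arginine in histones and other proteins to citrulline. Each group had 1 library, so no difference below has a check against replicate spread. Intervals and floors cover counting error alone, and PCR copies were not separable from molecules.

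Keratins are the intermediate filament proteins of epithelial cells. Each filament subunit pairs an acidic type I keratin with a basic type II keratin, and an unpaired partner is degraded. Simple epithelia, among them the luminal layer of the breast, use KRT8 with KRT18, together with KRT7 and KRT19. Basal cells of stratified and mammary epithelium use KRT5 with KRT14 or KRT15. Wounded or fast-growing epidermis adds KRT6A, KRT6B and KRT6C with KRT16 and KRT17. KRT4 and KRT13 form the pair of non-cornified mucosa such as oesophagus, and KRT1 and KRT10 that of cornifying epidermis.

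Total expected counts, the estimated reads of all genes, were 77220120 in GSK484, 92980847 in CON and 70555229 in NT. All 5 epithelial markers outside the keratins were measured, with summed TPM between 896.72 and 914.86, CDH1 and EPCAM among them. Of these 5, 0 were higher, 3 lower and 2 within counting error for GSK484 over CON, with a median log2 fold of -0.16. Over all genes tested, 26.9% were higher and 27.4% lower beyond counting error. TPM is a level per transcript length, with an equal total for each library. PTPRC and CD3E were listed at 0 in every library, as were DCN and LUM. The summed fibroblast markers, nearly all VIM, were at 250.5, 203.06 and 228.83 TPM in the same order, and 2 of 6 were measured. Endothelial marker TPM did not exceed 0.58, adipocyte marker TPM 4.8 and melanocyte marker TPM 0.77. The part of these markers in the keratin differences was not tested.

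Reads of some keratins cannot be given to 1 gene, and the KRT6 genes show it best. Their coding sequences have 1692 bases each in GENCODE release 29. KRT6A and KRT6B were identical at 97.5% of bases, KRT6A and KRT6C at 97.9%, and KRT6B and KRT6C at 98.5%. The 3 sequences differ somewhere at 51 positions, and the longest run shared by all 3 is 269 bases, longer than a read of 125 bases. The window of 125 coding bases with the most differences, coding bases 621 to 745, is shown to let the reader see what tells these transcripts apart. Capitals mark the 10 positions at which the 3 genes are not all alike.
KRT6A: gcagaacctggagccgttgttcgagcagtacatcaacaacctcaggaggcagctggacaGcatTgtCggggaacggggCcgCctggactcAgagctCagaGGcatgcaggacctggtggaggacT
KRT6B: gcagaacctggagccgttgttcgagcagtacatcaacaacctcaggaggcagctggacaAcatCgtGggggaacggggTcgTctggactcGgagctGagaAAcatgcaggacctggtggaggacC
KRT6C: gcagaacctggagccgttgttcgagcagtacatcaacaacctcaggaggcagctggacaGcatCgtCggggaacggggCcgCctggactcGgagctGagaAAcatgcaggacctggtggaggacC

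Windows of 125 coding bases that recur exactly in the transcript of another keratin gene or pseudogene made up 24.0% of KRT6B, 16.5% of KRT6A, 31.5% of KRT6C and 35.1% of KRT81, a hair keratin. For KRT16 the share was 4.71% and for KRT14 3.33%, while KRT15, KRT10, KRT23, KRT19, KRT13 and KRT4 shared none. Those last 6 genes had whole expected counts, within 0.005, in all 3 libraries, and the other 13 measured keratins carried divided reads in at least 1 library. These include KRT18, KRT7, KRT17, KRT80 and KRT75, which shared no such window either. KRT81 and KRT86 moreover overlap on opposite strands, and whether counting used strand is not given in the sources used here. Annotated pseudogenes took 0.834%, 0.839% and 0.865% of the reads of KRT8 and its copies in GSK484, CON and NT.

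Of the 55 keratins, 19 reached 1 CPM (counts scaled to a common library total) in at least 1 library and are called measured here, 9 of type I and 10 of type II. Another 17 had counts below that level. KRT9, of palm and sole epidermis, had 0.55 TPM in GSK484, 0.41 TPM in CON and 0.33 TPM in NT, and the hair keratin KRT86 had 0.50, 0.49 and 0.54 TPM in that order. The other 15 of them had at most 10 counts in any library. The remaining 19 had a count of 0 everywhere, where 3 counts would be 0.0385 CPM in GSK484, 0.0329 CPM in CON and 0.0421 CPM in NT. KRT1 and KRT2 of cornifying epidermis and all inner root sheath keratins were unmeasured.

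Simple epithelial keratins made up most of the keratin RNA. Their summed TPM was 12116.73 in GSK484, 11366.5 in CON and 11614.27 in NT, or 66.5%, 65.3% and 67.1% of all keratin TPM. KRT18 stood at 4256.29 TPM in GSK484, 3875.31 TPM in CON and 4072.48 TPM in NT, which put it at rank 23, 39 and 32 of all genes. Its partner KRT8 had 4061.84, 3740.51 and 3922.48 TPM in the same libraries, so that the KRT8 to KRT18 ratio was 0.954, 0.965 and 0.963. KRT7, a simple keratin of ducts, followed at 3790.82, 3743.07 and 3610.95 TPM. KRT19, the other luminal keratin in common use as a marker, was near the bottom at 2.69, 3.17 and 3.73 TPM. KRT23, a type I keratin of simple epithelia, had 5.09, 4.43 and 4.63 TPM.

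Among basal keratins the pairing was uneven. KRT5 had 767.62 TPM in GSK484, 592.08 TPM in CON and 684.76 TPM in NT. KRT14, its usual partner, had 11.85, 13.35 and 13.80 TPM in the same order, leaving KRT5 64.8, 44.4 and 49.6 times as abundant. KRT5 was thus far in excess of KRT14 in each library, most of all in GSK484. KRT15, the alternative type I partner in basal cells, stood at 3010.46, 3423.13 and 2879.19 TPM, or 254, 256 and 209 times the level of KRT14. Stress keratins were led by KRT17, at 1554.54, 1405.06 and 1424.84 TPM, and KRT6B, at 597.85, 445.47 and 519.03 TPM. KRT16 had only 27.43, 30.30 and 30.18 TPM, and KRT6A 35.84, 25.94 and 25.12 TPM. KRT17 was 56.7 times as abundant as KRT16 in GSK484, 46.4 times in CON and 47.2 times in NT. Each stress or basal pairing thus had 1 abundant and 1 scarce type I gene. Type II and type I keratins summed to similar amounts, 9342.4 and 8886.01 TPM in GSK484, 8634.13 and 8775.78 in CON, and 8856.57 and 8446.68 in NT. The ratio of type II to type I was thus 1.05 in GSK484, 0.984 in CON and 1.05 in NT. On the CPM scale, where longer transcripts weigh more, it was 1.34, 1.24 and 1.33. KRT18, KRT8, KRT7 and KRT15 were among the 100 most abundant genes of each library, and with KRT17, KRT5 and KRT6B they held 99.0%, 98.9% and 98.9% of keratin TPM.

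**Figure D1:**
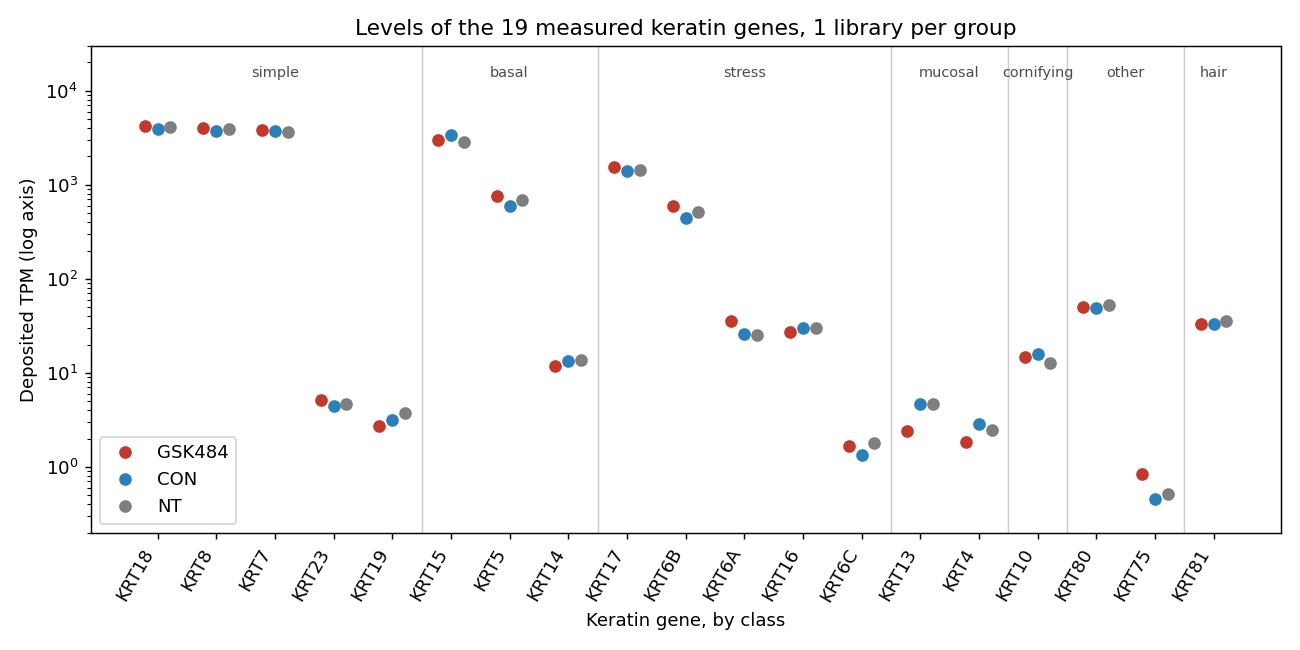
Deposited TPM, on a log axis, of the 19 measured keratin genes in the GSK484, CON and NT libraries, 1 point per library, grouped by class. Levels span from 0.46 TPM for KRT75 in CON to 4256.29 TPM for KRT18 in GSK484, and within a gene the 3 points lie close together next to that span.

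**Figure D2:**
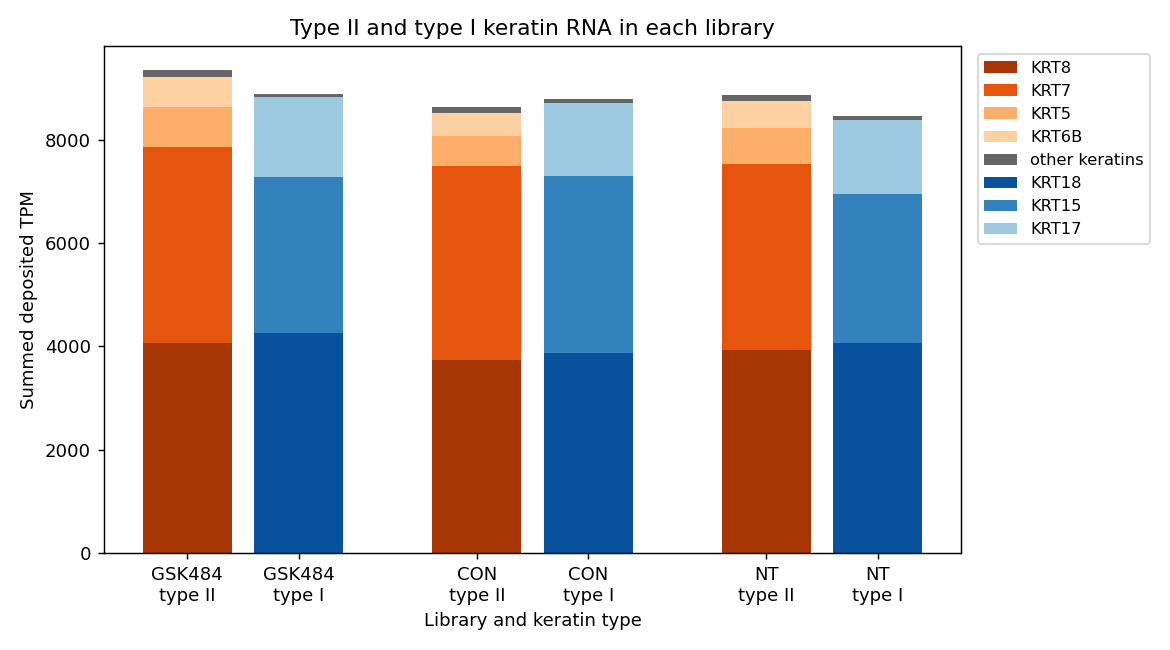
Summed deposited TPM of type II and type I keratins in each library, stacked by gene, with 1 library per bar. Type II exceeded type I in GSK484 and NT, with a ratio of 1.05 in each, and not in CON, where it was 0.984.

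The comparison of GSK484 with CON asks how the inhibitor differed from its control compound after the same 72 h. None of the 19 measured keratins was called by the size rule, which asked for a 2-fold difference beyond counting error with 1 CPM or more in either library. Over all 13199 genes so tested, 0.47% were called. Two-sided 95% counting intervals lay above 0 for 7 keratins and below 0 for 10, against 26.9% and 27.4% of all genes. The 7 include KRT75, which reached 1 CPM in GSK484 alone and so was measured only because it was high there. At the counts of the abundant keratins, moreover, such an interval is passed by very small differences. The median keratin log2 fold was -0.035, or 0.034 with the deposited TPM, beside -0.0051 for all genes tested. The median of the absolute log2 fold was 0.25 over the keratins and 0.11 over all genes. In TPM the median over all measured genes itself was 0.10 higher than in CPM, so TPM folds are to be read against that shift. A lower RNA level in such a culture can mean fewer cells of a kind or less RNA per cell, which cannot be told apart.

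The mucosal pair KRT13 and KRT4 was lower in GSK484. KRT13 had 234 reads in GSK484, 514 in CON and 304 in NT, or 3.004, 5.63 and 4.26 CPM. GSK484 was lowest and CON highest, 1.87-fold apart (log2 fold -0.91, counting interval -1.14 to -0.68). KRT4, the type II partner of KRT13, had 3.11, 4.66 and 3.79 CPM in the same order and was likewise lowest in GSK484 and highest in CON (log2 fold -0.58, interval -0.82 to -0.35). Both genes had whole counts, and the epithelial markers given above were mostly lower in GSK484 too, whose part in this was not tested. Of 4071 genes with a mean of 1 to 10 CPM, 5% had an absolute log2 fold above 0.64 and 10% above 0.51, so KRT13 lay beyond the first value and KRT4 between them. Effective length, the length RSEM divides by, differed for KRT13 between libraries, at 1478, 1312 and 1085 bases, and its deposited TPM was 2.38, 4.65 and 4.62. By TPM, therefore, CON and NT were level and GSK484 alone was low. The KRT4 to KRT13 ratio in TPM was 0.769 in GSK484, 0.615 in CON and 0.539 in NT.

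KRT75, KRT6A, KRT6B and KRT5, all type II, were higher in GSK484. KRT75, a keratin of the hair companion layer, had 1.54 CPM in GSK484, against 0.91 in CON and 0.95 in NT (log2 fold 0.75 over CON, interval 0.34 to 1.18). It reached 1 CPM in GSK484 alone and so was measured only because it was high there. It and KRT13 were the 2 keratins past 1.5-fold, where 3.55% of all genes were, and nothing is read from KRT75 in that count. KRT6A had 26.7, 19.5 and 22.7 CPM in the same order (log2 fold 0.46 against CON, interval 0.36 to 0.55). KRT6B had 1076, 864.7 and 925.0 CPM, a 1.24-fold difference (log2 fold 0.31, interval 0.30 to 0.33). GSK484 was the highest library for both and, by CPM, CON the lowest. KRT6C was within counting error, at 2.90, 2.43 and 3.05 CPM (0.25, interval -0.02 to 0.53). Pooled, so that reads divided among them do not matter, the 3 KRT6 genes had 1105 CPM in GSK484, against 886.6 in CON and 950.7 in NT (log2 fold 0.32 over CON). KRT5, the basal type II keratin, had 1453, 1212 and 1287 CPM in the same order (log2 fold 0.26, interval 0.25 to 0.27). For genes of 100 to 1000 CPM the 95th percentile of the absolute log2 fold was 0.27, which KRT6B exceeded, and for those of 10 to 100 CPM it was 0.41, which KRT6A exceeded. KRT5 lay inside the corresponding 0.40 of the 125 genes above 1000 CPM. KRT6B was near the upper end of its range, and its 0.31 would lie inside that 0.40 too.

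The type I keratins of basal and stressed cells were mostly on the other side. KRT15 had 3038 CPM in GSK484, against 3624 in CON and 3054 in NT, and was 1.19-fold lower in GSK484 than in CON (log2 fold -0.25). By CPM, CON alone stood apart, and GSK484 and NT were nearly level (-0.0076). After a spline trend on GC content and length was taken out, KRT15 was at -0.17 for GSK484 over CON, -0.10 for GSK484 over NT and 0.07 for CON over NT, so GSK484 then lay below both. KRT14 had 9.58, 11.9 and 10.2 CPM (log2 fold -0.31 against CON, interval -0.45 to -0.18). KRT16 had 31.2, 38.4 and 35.3 CPM (log2 fold -0.30, interval -0.38 to -0.23). Both were lowest in GSK484 and, by CPM, highest in CON. KRT17, the abundant type I stress keratin, differed by little (0.035), at 1774, 1731 and 1605 CPM. KRT10, which pairs with KRT1 in cornifying epidermis, had 24.4, 28.4 and 21.1 CPM and was lower than in CON (log2 fold -0.22, interval -0.31 to -0.14). By type, 2 type I keratins were higher, 6 lower and 1 within counting error, and 5 type II keratins were higher, 4 lower and 1 within. The 5 include KRT75, which was measured only through GSK484. Over all genes tested, 26.9% were higher and 27.4% lower.

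Simple keratins hardly differed apart from KRT19. KRT19 had 2.38 CPM in GSK484, against 3.23 in CON and 3.13 in NT, and was 1.36-fold below CON (log2 fold -0.44, interval -0.72 to -0.18). This was the lowest of the 3 libraries. The fold of KRT19 over CON was still inside 0.51, which 10% of genes with a mean of 1 to 10 CPM exceeded. Log2 folds were 0.036 for KRT18 and 0.010 for KRT8, small next to the 0.12 that was the median absolute fold of the 125 genes above 1000 CPM. KRT7 was at -0.035, and at 0.018 with TPM and 0.0049 with scaling to total counts, so its sign depends on the scaling. The median of all measured genes was -0.0047, 0.097 and 0.035 in the same order, and KRT7 lay below it each time. KRT23 was within counting error (0.06). KRT80, an epithelial keratin of broad occurrence, was at -0.09 and KRT81 at -0.07. With TPM both were above 0, at 0.022 and 0.034, but below the 0.097 of all measured genes.

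**Figure D3:**
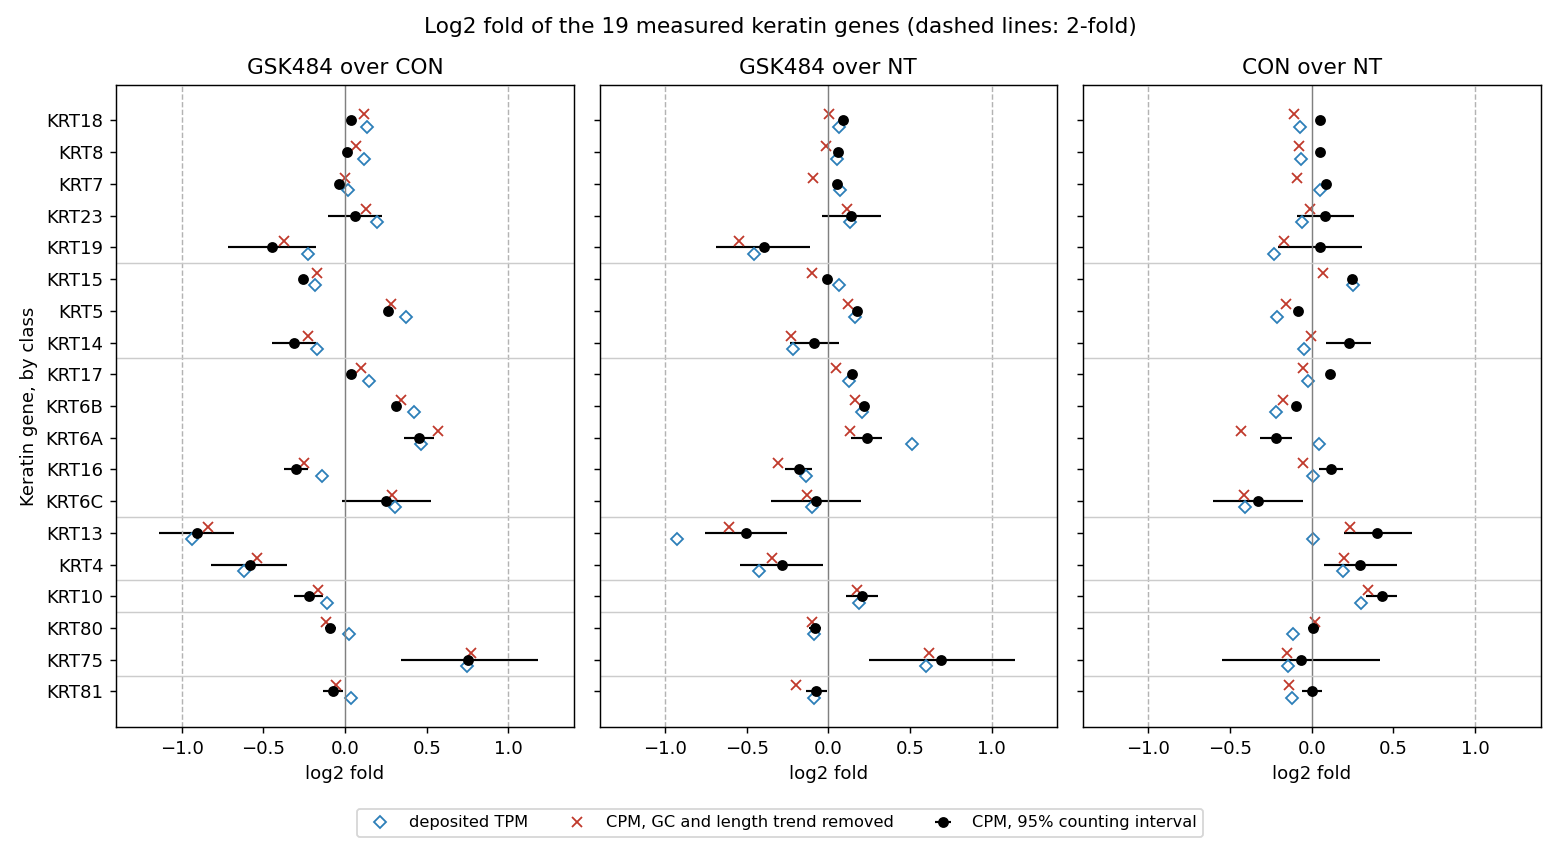
Log2 fold of each measured keratin for GSK484 over CON, GSK484 over NT and CON over NT, with 1 library per group. Filled points are CPM folds with 95% counting intervals, open diamonds the deposited TPM, crosses the CPM fold after the GC and length trend was removed, and dashed lines mark 2-fold. No point reaches 2-fold, and KRT13 in GSK484 over CON comes nearest, at -0.91 by CPM and -0.94 by TPM.

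**Figure D4:**
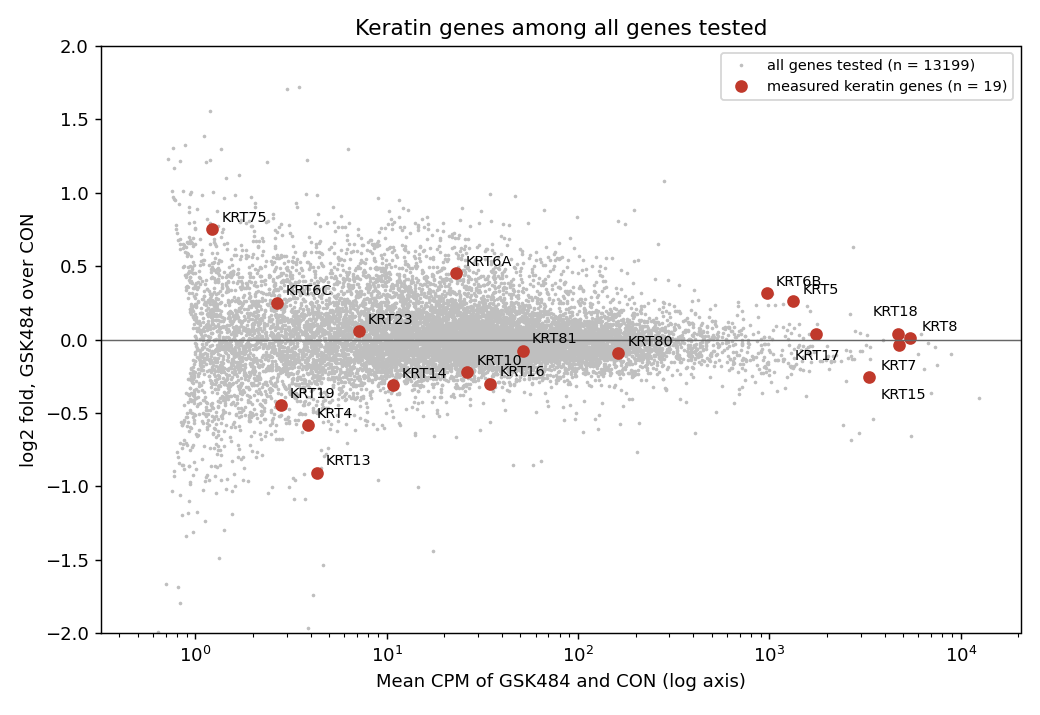
Log2 fold of GSK484 over CON against mean CPM, on a log axis, for 13199 genes in grey and 19 keratins in red, 1 library per group, with 10 genes beyond the axis limit of 2. KRT13 and KRT6A lie toward the edge of the cloud at their level, as does KRT75, which was measured only through GSK484. KRT6B is past the 95th percentile of genes of 100 to 1000 CPM but inside that of genes above 1000 CPM. KRT8, KRT18, KRT7 and KRT17 lie near 0.

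Keratin genes lie in 1 cluster on chromosome 12, with the type II genes and KRT18, and 1 on chromosome 17, with the other type I genes. Of 11 measured genes on chromosome 12, 6 were higher in GSK484 than in CON, 4 lower and 1 within counting error. The 6 include KRT75, which entered only through its level in GSK484. Of 8 on chromosome 17, 1 was higher, 6 lower and 1 within. Over all genes tested, 26.9% were higher and 27.4% lower. The genes KRT75, KRT6B, KRT6C, KRT6A and KRT5 follow each other on the map with no other protein-coding gene between them, and KRT6B, KRT6A and KRT5 were higher beyond counting error, with log2 folds of 0.26 to 0.46. KRT75 was higher too, but was measured only through GSK484, and KRT6C was within counting error. KRT13, KRT15 and KRT19, also neighbours, were all lower, from -0.91 to -0.25. KRT6 reads can be assigned to the wrong copy, so the 3 KRT6 genes are not separate observations.

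**Figure D5:**
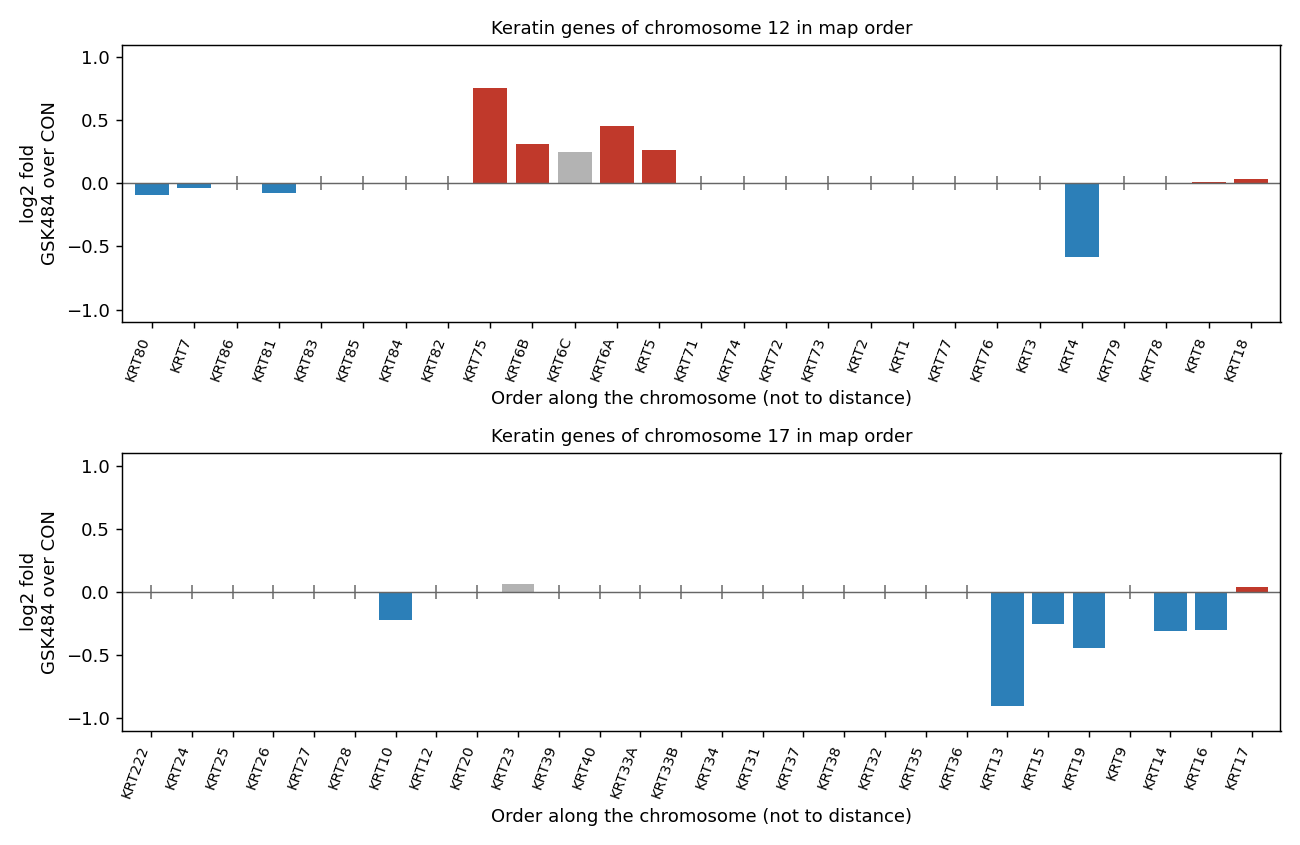
Log2 fold of GSK484 over CON for keratins in their order along chromosomes 12 and 17, not to distance, with 1 library per group. Red bars are higher and blue bars lower beyond counting error, grey bars are within it, and ticks are unmeasured genes. The block from KRT75 to KRT5 is above 0 and the block from KRT13 to KRT16 below. KRT75 was measured only through GSK484.

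RefSeq promoter sequences (GRCh38.p14), running from 250 bases before to 50 after a gene's start, were matched for 34 of the 55 keratins and 5 of the 19 measured ones. Those of KRT5 and KRT75, which bound the higher block, and of KRT4, which was lower, are shown because GSK484 differed from CON in opposite directions for them. They are KRT5 at chr12:52520345-52520644, KRT75 at chr12:52434322-52434621 and KRT4 at chr12:52814067-52814366, all on the minus strand and written 5′ to 3′ along the gene. Capitals mark ATAAAA in KRT5 and KRT75 and TATAAG in KRT4, variants of the TATA box chosen after the sequences were read.
KRT5: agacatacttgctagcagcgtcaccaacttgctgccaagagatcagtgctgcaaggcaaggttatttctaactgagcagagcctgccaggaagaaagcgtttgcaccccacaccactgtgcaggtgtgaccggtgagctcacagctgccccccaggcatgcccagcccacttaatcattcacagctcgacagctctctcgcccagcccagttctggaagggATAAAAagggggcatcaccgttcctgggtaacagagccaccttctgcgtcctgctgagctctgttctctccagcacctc
KRT75: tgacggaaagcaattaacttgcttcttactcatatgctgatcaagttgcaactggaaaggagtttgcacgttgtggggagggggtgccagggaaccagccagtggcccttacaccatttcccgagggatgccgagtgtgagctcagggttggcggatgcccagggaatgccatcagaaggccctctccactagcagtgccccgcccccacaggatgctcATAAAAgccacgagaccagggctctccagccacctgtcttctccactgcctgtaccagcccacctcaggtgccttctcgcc
KRT4: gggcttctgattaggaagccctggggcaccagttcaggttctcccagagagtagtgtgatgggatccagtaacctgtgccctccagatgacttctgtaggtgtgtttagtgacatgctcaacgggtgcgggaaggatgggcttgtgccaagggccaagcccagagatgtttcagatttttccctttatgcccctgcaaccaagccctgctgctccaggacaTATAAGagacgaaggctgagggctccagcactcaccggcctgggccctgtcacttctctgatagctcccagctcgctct

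These motifs began 29 bases before the start in KRT5, 31 in KRT75 and 29 in KRT4. On either strand, ATAAAA occurred in 16.0% of 35093 promoters of the same length and TATAAG in 5.59%. Among measured keratins ATAAAA also occurred in KRT10, which was lower in GSK484 than in CON (log2 fold -0.22). KRT75 was measured only through GSK484, and whether these motifs go with the direction of a fold was not tested. TATAAA, which overlaps ATAAAA where an A follows it, occurred in 11.5% and in none of these 3. GGGCGG, a GC box core, occurred in KRT75 and in 45.0% of all promoters, and TGANTCA, the AP-1 motif, in none of the 3 and in 7.71% of all.

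GSK484 and NT compare inhibited with untreated cells. This comparison uses the same GSK484 library as the comparison with CON, so whatever is particular to that library enters both. None of the 19 keratins was called by the size rule, against 0.545% of 13209 genes. The median keratin log2 fold was 0.05, beside -0.0028 for all genes. Intervals lay above 0 for 9 keratins and below 0 for 6, against 27.3% and 29.5% of all genes. The 9 include KRT75, which entered only through its level in GSK484. With the GC and length trend taken out, the median was -0.09 and the balance turned to 6 higher and 10 lower.

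KRT75 was the 1 keratin past 1.5-fold against NT (1.61-fold, log2 fold 0.69, interval 0.25 to 1.14), where 3.01% of all genes were. As it passed the 1 CPM filter through GSK484 alone, nothing is read from that count. KRT13 was 1.42-fold lower (log2 fold -0.50, interval -0.76 to -0.25), and its TPM fold was larger at -0.93. KRT4 was at -0.29 (interval -0.54 to -0.03) and KRT19 at -0.40 (interval -0.69 to -0.11), so both counted as lower. For these 3 genes GSK484 lay below both other libraries. By CPM, each of the 3 folds against NT was inside 0.53, which 10% of genes with a mean of 1 to 10 CPM exceeded. KRT6A (0.24), KRT6B (0.22) and KRT5 (0.18) were higher than in NT, and KRT6C was within counting error (-0.08). KRT15 (-0.0076) and KRT14 (-0.09) were within it too, but at -0.10 and -0.23 with the trend taken out, while KRT16 was lower (-0.18). KRT10 was on the other side from the comparison with CON, 1.15-fold above NT (log2 fold 0.20, interval 0.11 to 0.30). KRT18 (0.09), KRT17 (0.14), KRT8 (0.06) and KRT7 (0.05) were a little higher by CPM. With that trend taken out, KRT17 was at 0.04 and KRT18 at 0.0042, while KRT8 was at -0.013 and KRT7 at -0.093. KRT80 (-0.08) and KRT81 (-0.07) were a little lower, and KRT23 was within counting error (0.14).

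CON against NT compares the control compound with untreated cells. Here too no measured keratin was called, against 1.68% of 13221 genes. KRT75 was below 1 CPM in both libraries and outside that count, within counting error. Intervals lay above 0 for 10 keratins and below 0 for 4, against 35.5% and 29.4% of all genes, and no keratin passed 1.5-fold, where 8.15% of all genes did. The median log2 fold of the 19 keratins was 0.05, beside 0.03 for all genes, and was -0.06 with TPM and -0.08 with the trend taken out. All measured genes themselves had a median of -0.083 with TPM and 0.0027 with the trend taken out. The keratin median was thus above that of all genes by CPM and TPM. It was below it with the trend taken out, so no common direction of the keratins can be given. KRT10 was 1.34-fold higher in CON (log2 fold 0.43, interval 0.34 to 0.52), and at 0.30 with TPM and 0.34 with the trend taken out. KRT13 was 1.32-fold higher by CPM (0.40, interval 0.19 to 0.61) and level by TPM (0.0091). KRT4 (0.30), KRT15 (0.25) and KRT14 (0.23) were also higher, but with the trend taken out KRT15 was at 0.07 and KRT14 at -0.0029. With TPM, KRT14 was at -0.048. KRT6C (-0.33), KRT6A (-0.22), KRT6B (-0.10) and KRT5 (-0.09) were lower in CON. KRT6A was at 0.046 by TPM and at -0.43 with the trend taken out. KRT18 (0.05), KRT8 (0.05), KRT7 (0.09), KRT17 (0.11) and KRT16 (0.12) were a little higher by CPM. With the trend taken out they were at -0.11, -0.080, -0.093, -0.053 and -0.054. With TPM, KRT18 was at -0.072, KRT8 at -0.069 and KRT17 at -0.020. KRT19, KRT23, KRT80 and KRT81 were within counting error. The CON library enters this comparison and that of GSK484 with CON, and no library of a second culture tells how far CON is typical.

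Genes that work with keratins were read from 3 lists. Of 13 measured keratin linker and accessory genes, 9 were higher in GSK484 than in CON, 0 lower and 4 within counting error (median 0.08), where 26.9% of all genes were higher and 27.4% lower. Here too, at high counts such intervals are passed by very small differences. With the GC and length trend taken out, some of these 13 were below 0 and the others above, from -0.08 to 0.66. The absence of lower genes thus does not hold with that trend taken out. With TPM all 13 were above 0, from 0.076 to 0.83, where all measured genes had a median of 0.097. Against NT, 9 were higher in GSK484 and 4 lower (median 0.13; 27.3% and 29.5% of all genes). For CON over NT, 7 were higher, 4 lower and 2 within (median 0.09; 35.5% and 29.4% of all genes). DST, which ties keratin filaments to hemidesmosomes, had 205.3 CPM in GSK484, against 117.5 in CON and 279.6 in NT (log2 fold 0.81 over CON). CON was thus low beside both other libraries, and DST was called for CON over NT (-1.25). PLEC, plectin, another linker of keratin to hemidesmosomes, had 1057, 896.7 and 816.6 CPM (0.24). TCHH, which binds keratin in hair, had 1.76, 1.28 and 1.23 CPM (0.45, interval 0.09 to 0.82). Of 7 other intermediate filament genes, 3 were higher, 0 lower and 4 within, with VIM at 0.19, LMNB1 at 0.08 and LMNA at 0.04. The intermediate filament gene VIM is that of mesenchymal cells, and LMNB1 and LMNA encode nuclear lamins. Against NT, 3 were higher in GSK484, 1 lower and 3 within, and for CON over NT 2 were higher, 2 lower and 3 within. The shares of all genes are those just given for the linkers.

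Of 16 measured transcription factors known to act on keratin genes, 4 were higher, 5 lower and 7 within counting error, with a median of -0.0049, which is near the 26.9% and 27.4% of all genes. Against NT, 5 were higher in GSK484, 7 lower and 4 within (median -0.11), beside 27.3% and 29.5% of all genes. For CON over NT, 6 were higher, 6 lower and 4 within (median 0.05), beside 35.5% and 29.4%. ELF3, an epithelial factor with divided reads, had 100.6 CPM in GSK484, against 153.3 in CON and 122.6 in NT (log2 fold -0.61 over CON). GRHL3, a factor of epidermal differentiation, had 6.60, 9.27 and 8.46 CPM (-0.49, interval -0.65 to -0.33). GRHL1, its relative, had 16.6, 21.7 and 21.6 CPM (-0.39, interval -0.49 to -0.29), lowest in GSK484 like KRT13 and KRT19. None of the genes in these 3 lists was called by the size rule in GSK484 against CON.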

How the data were processed

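RNA-seq gene tables of 3 libraries, 1 for each group in the labels, were analysed. Per the submitters' processing notes, the authors used RSEM with hg19. Versions, aligner, annotation release and strand setting: not given in the sources used here. The authors deposited expected counts (estimated reads, not normalized), TPM and FPKM (both per effective length), per the file headers. The kit was for stranded total RNA, and reads were paired ends of 125 bases, per the labels' protocols.

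Expected counts were scaled to CPM with TMM factors (edgeR 4.0.16, R 4.3.3), which were 1.01 for GSK484, 0.981 for CON and 1.01 for NT. Log2 folds used a prior count of 0.5. Their 95% intervals were exact conditional binomial (Clopper-Pearson) intervals on rounded counts. With 1 library per group there was no test. A gene was called at a fold of at least 2 beyond counting error with 1 CPM in either library. TPM folds added 0.1. The methods were tested on simulated data. Alternatives covered scaling (DESeq2 1.42.0 size factors included), prior count, filters, TPM, and a spline trend on GC content and effective length over protein-coding genes of at least 10 CPM. GC content was known for 100% of measured keratins. Gene IDs were named by a symbol table (50276 of 56632 matched) and GENCODE release 29, which belongs to another build, so positions were used for order only and promoter coordinates are of that other build. NEFL, EPPK1 and PECAM1 were not analysed here. The result of 1 marker list is not reported here. The naming rule took every measured keratin and up to 3 genes of each accessory list by size of fold. Members and lists were chosen with earlier results of these data known.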

Additional observations from a re-analysis of the deposited data

How the results depend on the processing

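None of the settings tried brought a measured keratin past 2-fold. A minimum fold of 1.5 gave 2 keratins for GSK484 against CON, 1 for GSK484 against NT and 0 for CON against NT, and with no filter on low values KRT3, at 0 reads in CON and 5 in NT, was called (1 gene). For GSK484 against CON, the keratin median was 0.0049 with total counts and 0.034 with TPM, and KRT7 (0.0049 and 0.018), KRT80 (0.022 with TPM) and KRT81 (0.034 with TPM) changed sign. The median of all measured genes was itself 0.035 with total counts and 0.097 with TPM. The 6 genes with whole counts had a median of -0.35, with 0 higher and 5 lower. For GSK484 against NT, taking out the GC and length trend moved the median to -0.093, with 10 lower genes, KRT7 at -0.093 and KRT8 at -0.013. A minimum of 10 CPM left 3 lower genes, and whole counts gave -0.15, 1 higher and 3 lower. For CON against NT, TPM gave a median of -0.062, with KRT18 at -0.072, KRT17 at -0.020, KRT8 at -0.069, KRT14 at -0.048 and KRT6A at 0.046. The median of all measured genes was itself -0.083 with TPM. Removing the trend gave a median of -0.080, 3 higher and 9 lower genes, with KRT18 at -0.11, KRT17 at -0.053, KRT7 at -0.093, KRT8 at -0.080, KRT16 at -0.054 and KRT14 at -0.0029. Whole counts gave 0.27, 4 higher and 0 lower, and pooling the KRT6 genes, an alternative chosen after seeing the data, left 2 lower. Fewer genes entered with whole counts, 10 CPM or pooling; for the other settings the cause was not tested. The type II to type I ratio by CPM was 1.34 in GSK484, 1.24 in CON and 1.33 in NT. Adding pseudogene reads, also chosen after seeing the data, changed no sign of KRT18, KRT17, KRT8, KRT19 or KRT16. Of 300 single-gene values under other settings, 17 changed sign where the main value lay beyond counting error. Of the others, 207 stayed inside the counting interval and 76 moved out of it, some of them across 0. Depth limits KRT75, KRT6C, KRT19, KRT13 and KRT4, all under 6 CPM.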
